A study of Mus musculus with 12 samples.

Results

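A set of 22 probe sets, most of them for digestive enzymes of the exocrine pancreas, stood far above all other arrays of diets #2 and #3 on both arrays of diet #2 normal intestine. They were chosen from 12422 probe sets that are not controls. The deposited intensity had to be at least 1000 on the lower of the 2 diet #2 normal arrays and at least 4 times the highest of the 2 diet #2 tumor, 2 diet #3 normal and 2 diet #3 tumor arrays. Reg1 and Reg2 were left out. The high values on diet #2 normal intestine therefore selected the members and are given as a description, with no test. The 4 diet #1 arrays played no part in the choice.

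The arrays measured RNA of normal intestine and of intestinal tumors from male Min/+ mice, 91 days old, which carry 1 mutant allele of the tumor suppressor gene Apc and form adenomas in the intestine. Every mouse was Min/+, so the normal intestine also came from mice with the mutant allele. Each tissue was sampled under 3 numbered diets, whose composition the labels do not give, and within each diet from Dnmt+/- Min/+ and Dnmt+/+ Min/+ mice, with 1 array per combination and 12 arrays in all. Dnmt stands for a DNA methyltransferase gene. The labels give neither the segment of intestine nor the animal behind an array. The p-values below therefore reflect only how these samples vary, and part of that variation may be technical. The mean deposited intensity was 1000 on the arrays of diets #2 and #3 and lay between 306 and 403 on those of diet #1, where 5109 to 5739 probe sets per array carried the value 50, the floor of those files. Intensities of diet #1 are therefore not set against those of the other diets.

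Acinar cells of the pancreas make digestive enzymes on the rough endoplasmic reticulum, store them in zymogen granules and release them into the duodenum when cholecystokinin acts on them. The proteases leave the cell as inactive precursors. Enteropeptidase of the duodenal epithelium activates trypsinogen, and trypsin activates the other precursors. Transcription of the acinar genes depends on the PTF1 complex, in which Ptf1a with an E protein binds an E-box (CACCTG) and RBPJ or RBPJL binds a neighbouring TC-box (TTTCCC) or a canonical RBPJ box (TTCCCA). Endocrine cells of the islets, which make insulin and the other islet hormones, lie embedded in the acinar tissue.

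Of the 22 members, 17 carried 1 gene symbol and stood for 16 genes, 4 carried several symbols and 1 had none. By role, 7 were for protease precursors (Ctrb1, Ctrl, Cela1, Cela2a, Prss2 and 2 probe sets of the trypsin family), 4 for lipid digestion (Cel, Clps, Pnliprp1, Pla2g1b) and 2 for pancreatic amylase. The others were Rnase1, Sycn, Gatm, Ins2, Akp3, Tff2, 2 probe sets of 2210010C04Rik, and the set with no symbol. The symbol 2210010C04Rik names no function. Its 2 sets were therefore given no role and stand outside the counts of precursors and acinar enzymes, where they may belong. The name pancreas-like fits 15 of the 22 members directly as acinar enzymes or a granule protein, and Ins2 as an islet hormone. It does not describe Akp3, an intestinal alkaline phosphatase, or Tff2, a trefoil peptide of mucous cells in the stomach and the Brunner glands of the duodenum. Probe sets whose names end in _f_at match families of similar transcripts, so the values for trypsins, amylases, Ins2 and 2210010C04Rik cannot be assigned to 1 gene of such a family.

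Promoters from RefSeq (build GRCm38.p6) were found for 13 of the 16 genes. The 250 bases before the annotated start are printed for 4 acinar enzyme genes that contain the letters of both an E-box and a TC-box, and for Akp3, which contains none of them. Capitals mark the letters of the E-box, the TC-box and the RBPJ box on either strand. The TC-box and RBPJ box overlap where a T precedes the letters of the RBPJ box. Cela1 lies on the minus strand (chr15:100687921-100688170), as do Cela2a (chr4:141826006-141826255) and Cel (chr2:28563404-28563653), and Prss2 (chr6:41521526-41521775) and Akp3 (chr1:87124704-87124953) lie on the plus strand.
Cela1: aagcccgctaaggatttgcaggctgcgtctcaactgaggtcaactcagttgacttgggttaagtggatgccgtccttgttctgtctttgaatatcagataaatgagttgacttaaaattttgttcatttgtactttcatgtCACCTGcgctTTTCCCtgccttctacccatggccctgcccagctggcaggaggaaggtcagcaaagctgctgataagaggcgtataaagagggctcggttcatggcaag
Cela2a: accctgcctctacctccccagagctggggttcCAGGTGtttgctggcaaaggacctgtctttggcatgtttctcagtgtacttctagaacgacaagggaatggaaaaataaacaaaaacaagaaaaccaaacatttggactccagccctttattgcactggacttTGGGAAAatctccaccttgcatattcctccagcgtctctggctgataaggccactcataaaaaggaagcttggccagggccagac
Prss2: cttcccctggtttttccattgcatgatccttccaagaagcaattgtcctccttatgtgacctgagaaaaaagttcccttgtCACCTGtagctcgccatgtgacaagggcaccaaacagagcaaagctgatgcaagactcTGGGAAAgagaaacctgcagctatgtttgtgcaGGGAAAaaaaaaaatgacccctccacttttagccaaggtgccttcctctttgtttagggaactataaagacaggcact
Cel: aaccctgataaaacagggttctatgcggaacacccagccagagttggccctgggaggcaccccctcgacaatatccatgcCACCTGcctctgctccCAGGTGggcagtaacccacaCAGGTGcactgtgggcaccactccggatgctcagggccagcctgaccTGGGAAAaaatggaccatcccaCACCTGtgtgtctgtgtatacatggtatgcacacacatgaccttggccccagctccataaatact
Akp3: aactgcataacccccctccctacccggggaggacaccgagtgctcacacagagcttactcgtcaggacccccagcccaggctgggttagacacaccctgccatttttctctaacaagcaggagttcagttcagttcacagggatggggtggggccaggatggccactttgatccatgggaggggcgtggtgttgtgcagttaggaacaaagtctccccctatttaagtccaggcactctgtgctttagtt
In the Cela1 promoter the E-box letters began at position -109 and the TC-box letters at -99, counted from the annotated start, with TATAAA at -27. In Cela2a they began at -218 and -84. Both strands of the 300 bases from 250 before to 50 after the start were searched. CACCTG occurred in 7 of the 13 promoters and in 20.2% of 32851 mouse promoters of the same length. TTTCCC occurred in 5 of 13 and 25.2%, and TTCCCA in 9 of 13 and 25.6%. An E-box together with either of the other boxes was present in 6 of 13 and in 7.92% of all promoters, and Akp3 and Pla2g1b held none of the 3, like 48.1% of all promoters. No spacing between the boxes was required, so a pair need not be neighbouring. These matches are letters in a window and do not show binding.

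Protease precursors formed the largest role group. Ctrb1, chymotrypsinogen B1, read 47769 and 57750 on the Dnmt+/- and Dnmt+/+ arrays of diet #2 normal intestine, 1021 and 980.1 in diet #2 tumor, 669 and 599 in diet #3 normal and 605 and 661 in diet #3 tumor. The 6 other values of diets #2 and #3 thus lay between 599 and 1021. Prss2, a trypsinogen, read 28974 and 34397 in diet #2 normal intestine and 16.8 and 12.7 in diet #2 tumor against 15.2 and 18.7 in diet #3 normal and 23.6 and 26.8 in diet #3 tumor, all 6 of them below 44.8, the floor of the tests described further on. Ctrl, a chymotrypsin-like precursor, read 27293 and 37445 in diet #2 normal and 62.1 to 299 on the 6 other arrays. All 7 precursors lay between 27293 and 47769 on the Dnmt+/- array and between 34397 and 57750 on the Dnmt+/+ array.

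The trypsin family sets behaved alike. The set annotated to Try5 and Try4 read 38857 and 45710 in diet #2 normal and 47.2 to 96.2 on the 6 others. The set annotated to Try10, Gm5409 and Try4 read 39687 and 44637 against 107 to 349. Cela2a, the precursor of an elastase, read 32651 and 38586 against 92.3 to 204. Cela1, the precursor of elastase 1, read 36666.5 and 44408.5 in diet #2 normal intestine, 1675 and 1678 in diet #2 tumor, 476 and 237 in diet #3 normal and 1299.9 and 1347 in diet #3 tumor. Its lower diet #2 normal value was 21.9 times the highest of the 6 others, and on those 6 it was higher on the tumor arrays than on the normal ones.

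Of the lipid-digesting proteins, Clps and Pla2g1b read close to 1000 or more on all the other arrays of diets #2 and #3. Cel, the bile salt-activated carboxyl ester lipase, read 39839 and 48435 in diet #2 normal and 288 to 603 on the other 6 arrays. Clps, the colipase that anchors pancreatic lipase to fat droplets, read 25531 and 33638 against 1582 to 2231. Pla2g1b, the pancreatic phospholipase A2, read 11196 and 17103 against 999 to 1745. With Cela1, Ctrb1 and Akp3, these were the members that reached 1000 on any of the 6 others. Pnliprp1, a lipase-related protein of the pancreas, read 16825 and 22862 in diet #2 normal, 217 and 168 in diet #2 tumor, 56.1 and 84.6 in diet #3 normal and 701 and 249 in diet #3 tumor.

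Both amylase sets had little signal on the other arrays. The set annotated to 6 amylase genes, with Amy2b among them, read 39250 and 42834 in diet #2 normal intestine and 1.34 to 17.7 on the 6 other arrays, all below 44.8, so that the size of the gap is not measured. The other amylase set, annotated to 5 of these genes, read 42392 and 46387 against 20.1 to 56.0. Rnase1, the pancreatic ribonuclease, read 14346.5 and 19249 against 69.7 to 221. Sycn, syncollin of the zymogen granule membrane, read 24611 and 34542 in diet #2 normal and varied more on the other arrays, with 430 and 23.0 in diet #2 tumor, 127 and 78.0 in diet #3 normal and 205 and 21.5 in diet #3 tumor. The lower diet #2 normal value was 57.3 times the highest of these.

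The remaining members include an islet hormone and members not placed in the role groups above. Ins2, which encodes insulin, read 1221 and 3926 in diet #2 normal intestine and 3.54 to 14.0 on the 6 other arrays. Another Ins2 probe set read 17.4 and 40.6 in diet #2 normal and 11.5 to 28.1 on the other 6 and did not show the gap. Gatm, which catalyses the first step of creatine synthesis and is abundant in pancreas, read 1169 and 1151 against 133 to 283, and its ratio of 4.07 was the lowest of the members. The brighter set of 2210010C04Rik read 33586 and 39382 against 470.04 to 783, and the dimmer one read 2373 and 2881 against 30.2 to 75.1. The set with no symbol read 1207 and 2368 against 18.2 to 61.4.

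Akp3 and Tff2 were the members whose known sites lie in the gut itself. Akp3 read 18591 and 14395 in diet #2 normal intestine, 65.9 and 1743 in diet #2 tumor, 163 and 212 in diet #3 normal and 63.4 and 743 in diet #3 tumor, and in diet #1 it read 50 and 1687.5 in normal intestine and 494 and 498 in tumor. The Dnmt+/+ array was far above the Dnmt+/- array in diet #2 tumor, diet #3 tumor and diet #1 normal intestine, and the arrays of the other groups were close. Tff2 read 17091 and 8676 in diet #2 normal, 202 and 562 in diet #2 tumor, 15.8 and 13.7 in diet #3 normal and 316 and 763 in diet #3 tumor. In diet #3 both tumor values of Tff2 lay above both normal values, as for 33.0% of all probe sets.

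**Figure D1:**
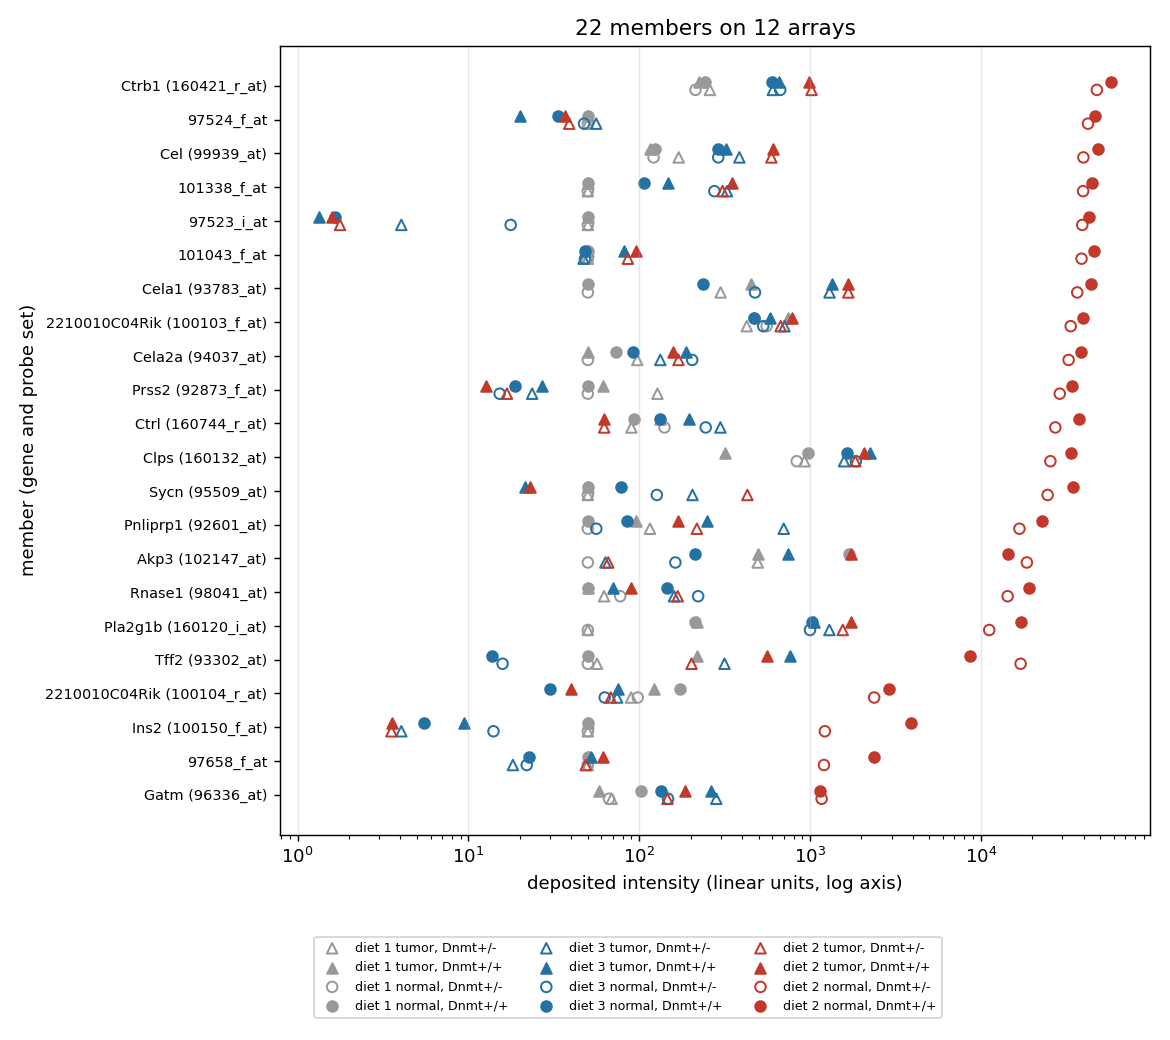
Deposited intensity (linear units on a log axis) of each of the 22 members on the 12 arrays; colours stand for diets, circles for normal intestine, triangles for tumor, open symbols for Dnmt+/- and filled ones for Dnmt+/+. The diet #2 normal arrays lie apart on the right for every member because the members were chosen so, and many diet #1 points lie at the floor of 50.

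Together the members carried 4.42% and 5.24% of the summed intensity on the Dnmt+/- and Dnmt+/+ arrays of diet #2 normal intestine and 0.0444% to 0.0933% on each of the 6 other arrays of diets #2 and #3. On both diet #2 normal arrays 13 of the 22 read over 20000. For 17 members all 6 other arrays of diets #2 and #3 stayed under 1000, and for 7 under 100. In bulk tissue, fewer cells of a type and less RNA per cell cannot be told apart.

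The diet #1 arrays had no part in the choice. On all 4 of them 7 members were at the floor of 50, among them both amylase sets, both trypsin family sets, Sycn and Ins2. A further 8 were at 50 on some of the 4 arrays, and 7 were above it on all 4. Only Akp3 reached 1000 on any diet #1 array, and 3 members reached 500. Ctrb1 read 213 and 244 in diet #1 normal and 259 and 225 in diet #1 tumor, and Clps read 836 and 972 in normal and 927 and 318 in tumor.

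The 2 diet #2 normal arrays differed in genotype, and the acinar members shared 1 direction between them. All 15 probe sets for acinar enzymes and Sycn were higher on the Dnmt+/+ than on the Dnmt+/- array, by ratios from 1.09 to 1.53 with a median of 1.21. Pla2g1b had the largest of these ratios at 1.53, Sycn had 1.40, and the amylase sets had the smallest at 1.09. Over the 2242 probe sets that read at least 1000 on both arrays the median ratio was 0.971, and the 5th and 95th percentiles were 0.752 and 1.24. Above that range lay Pla2g1b, Sycn, Ctrl at 1.37, Pnliprp1 at 1.36, Rnase1 at 1.34 and Clps at 1.32, and also Ins2 at 3.22 and the set with no symbol at 1.96. Tff2 lay below the range at 0.508, and Akp3 at 0.774 and Gatm at 0.985 were also lower on the Dnmt+/+ array but within it. Each ratio compares 1 array with 1 array and has no replicate check.

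**Figure D2:**
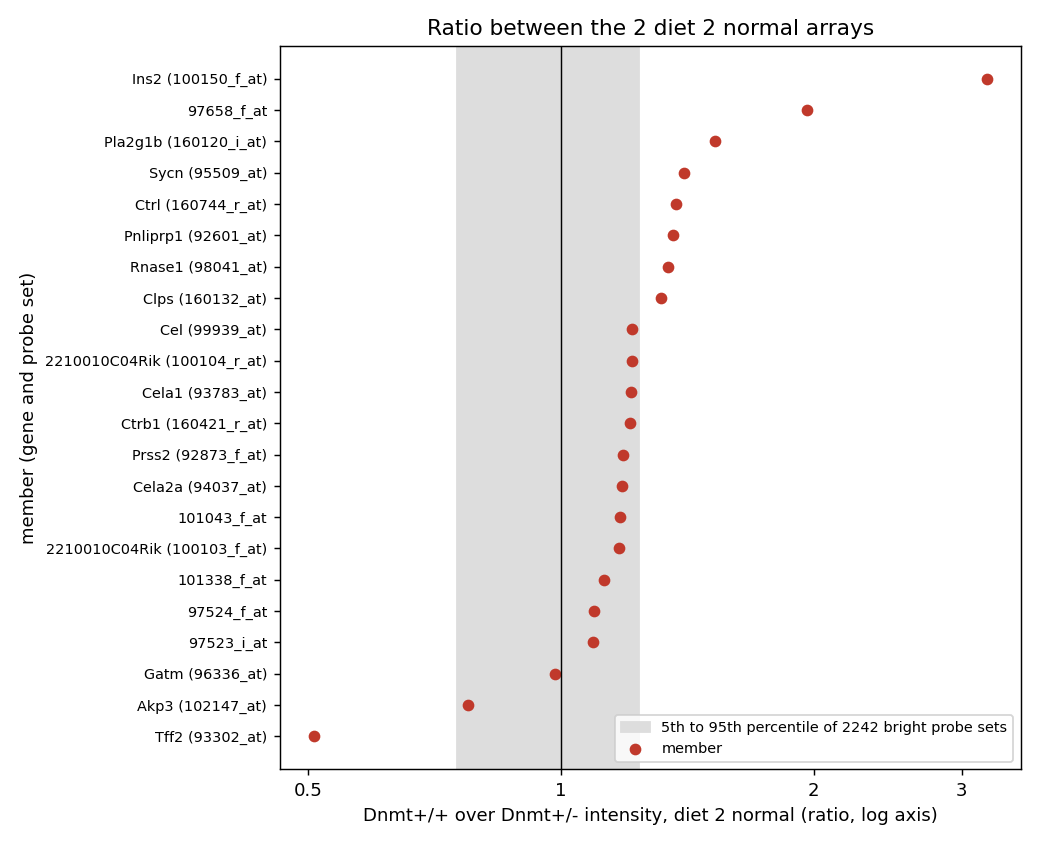
Ratio of the Dnmt+/+ to the Dnmt+/- deposited intensity in diet #2 normal intestine (log axis), 1 point per member, with the 5th to 95th percentile (0.752 to 1.24) of 2242 bright probe sets shaded. Acinar members lie together between 1.09 and 1.53, Ins2 lies to their right at 3.22 and Tff2 to their left at 0.508.

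Tumor was compared with normal intestine within diet #1 and within diet #3, contrasts other than the one that chose the members. The diet #3 arrays did serve in the choice, as a ceiling that took no account of tissue, so the diet #3 values are not independent of it. limma was fitted to log2 quantile-normalized intensities of 7453 probe sets on all 12 arrays, with tissue by diet group and genotype as terms and values under 44.8 raised to that floor. The 22 members passed its filter on low means through the diet #2 normal arrays for which they were chosen. The counts and medians over them, and the calls of single members below, are therefore descriptions and support nothing. In diet #1, 4 of the 22 were higher in tumor at a limma adjusted p under 0.05, where 7.5% of all probe sets were called higher, and 0 were lower, where 5.8% were called lower (0 members lower at an unadjusted p under 0.05). In diet #3, 4 were higher beside 8.01% of all probe sets, and 0 were lower beside 8.05% (again 0 at an unadjusted p under 0.05). The median difference of the members was -0.02 in diet #1 and 0.11 in diet #3 on the log2 scale, and that of all probe sets was -0.02 in both.

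Cela1 was called in both diets. In diet #1 it read 50 and 50, the floor, in normal intestine and 299 and 454 in tumor, so that the groups did not overlap. The fitted log2 difference was 4.13 ± 0.28 (SE, n = 2 arrays per group, limma adjusted p = 0.000222), or 17.5-fold. The deposited values gave a ratio of 7.37, and with both normal arrays at the floor this is a lower bound. In diet #3 both tumor values, 1299.9 and 1347, lay above both normal values, 476 and 237, with a log2 difference of 1.82 ± 0.28 (SE, n = 2 arrays per group, limma adjusted p = 0.00753). Fitted on the arrays of 1 diet alone the adjusted p was 0.156 in diet #1 and 0.0667 in diet #3.

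Pnliprp1 was also called in both diets. In diet #1 it read 50 and 50 in normal intestine and 115.5 and 96.1 in tumor (log2 difference 2.33 ± 0.44, SE, n = 2 arrays per group, limma adjusted p = 0.0162). In diet #3 the tumor values of 701 and 249 lay above the normal values of 56.1 and 84.6 (2.29 ± 0.44, SE, n = 2 arrays per group, limma adjusted p = 0.0158). The diet #1 call was lost on values as deposited, where the log2 difference was 1.08 with an adjusted p of 0.162 by limma. Without the Dnmt+/- normal or tumor array of a diet the call in that diet was lost.

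Tff2 was the last of the 3 members called in both diets, with the largest difference in diet #3. There it read 15.8 and 13.7 in normal intestine, below the floor of the fit, and 316 and 763 in tumor (log2 difference 3.03 ± 0.63, SE, n = 2 arrays per group, limma adjusted p = 0.0197). With both normal values below it, the floor sets the size of this difference, which ranged from 1.87 to 3.82 among the alternatives. In diet #1 it read 50 and 50 in normal and 56.6 and 218 in tumor (2.40 ± 0.63, SE, n = 2 arrays per group, limma adjusted p = 0.0473). On values as deposited the diet #1 difference was 1.15 with a limma adjusted p of 0.298, and with median scaling it was 1.02. The diet #1 call held in 7 of 23 alternatives and the diet #3 call in 16 of 23, and leaving out any 1 of the 4 arrays of a diet ended the call in that diet. The adjusted p reached 0.299 and 0.129 among those alternatives.

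Prss2 and Gatm were each called in 1 diet. In diet #1 Prss2 read 50 and 50 in normal intestine and 127.8 and 61.4 in tumor (log2 difference 2.14 ± 0.34, SE, n = 2 arrays per group, limma adjusted p = 0.00755), and on values as deposited the difference was 0.83 with an adjusted p of 0.133. In diet #3 all 4 Prss2 values lay below the floor of the fit, so its fitted difference was 0. Gatm read 147 and 133 in diet #3 normal and 283 and 264 in diet #3 tumor, groups that did not overlap (0.78 ± 0.20, SE, n = 2 arrays per group, limma adjusted p = 0.0413), and in diet #1 it read 66.5 and 103 in normal and 68.9 and 58.5 in tumor (-0.42 ± 0.20, adjusted p = 0.205). The Gatm call held in 10 of 22 alternatives and was lost without any 1 array of diet #2 or diet #3. In diet #3 both tumor arrays lay above both normal arrays for 33.0% of all probe sets.

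**Figure D3:**
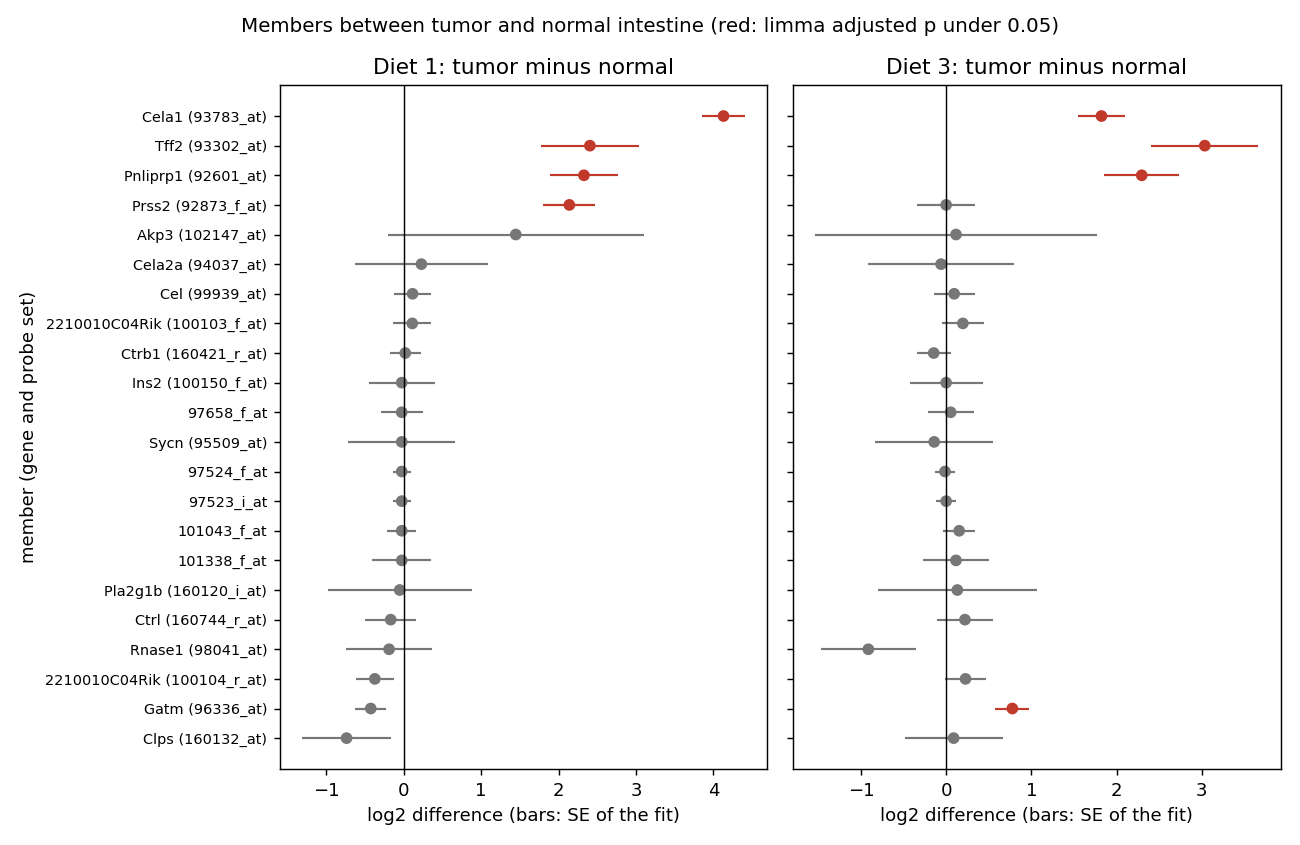
Fitted log2 difference between tumor and normal intestine in diet #1 (left) and diet #3 (right) for each member, with bars of 1 SE; red marks a limma adjusted p under 0.05. Cela1, Tff2 and Pnliprp1 are red in both panels, Prss2 on the left only and Gatm on the right only, and most other members lie close to 0.

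The difference between the diet #1 and diet #3 tissue effects was called for 0 members in either direction by limma, where 0.55% of all probe sets were called higher and 0.429% lower (2 members higher and 1 lower at an unadjusted p under 0.05). The calls in 1 diet only are therefore not shown to be particular to that diet. The other acinar members gave small or poorly determined differences: Ctrb1 0.02 ± 0.20 in diet #1 and -0.15 ± 0.20 in diet #3, Cel 0.12 ± 0.24 and 0.09 ± 0.24, and Cela2a 0.23 ± 0.85 and -0.06 ± 0.85 (SE). Rnase1 had the most negative diet #3 difference at -0.91 ± 0.56 (limma adjusted p = 0.332), and Clps the most negative in diet #1 at -0.74 ± 0.57 (limma adjusted p = 0.431).

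Genotype was compared over all 12 arrays. No probe set of 7453 was called between Dnmt+/- and Dnmt+/+ by limma (0% in each direction), with 192 higher and 204 lower in Dnmt+/- at an unadjusted p under 0.05. Among the members, 1 was higher and 1 lower at an unadjusted p under 0.05. Rnase1 differed by 0.99 ± 0.32 and Akp3 by -2.27 ± 0.95 on the log2 scale (Dnmt+/- minus Dnmt+/+, SE, limma adjusted p = 0.799 for both).

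Genes outside the members were taken from lists for acinar, islet, duct, gut and neighbouring cell types, and tested between diet #2 and diet #3 normal intestine (2 arrays each), where limma called 1.97% of all probe sets higher and 2.42% lower in diet #2. Of 130 listed genes tested, 12 were higher and 4 lower. Of the 29 listed acinar enzymes 10 were members, 15 had no probe set of their own and the other 4 all passed as higher. Amy1, an amylase, read 943 and 710 in diet #2 normal against 6.09 and 4.94 in diet #3 normal (log2 difference 3.93 ± 0.14, SE, limma adjusted p = 1.28e-05). Both diet #3 normal values lay below the floor, which sets this difference and its SE, and the difference ranged from 2.77 to 4.78 among the alternatives. Amy1 read 50 on all diet #1 arrays and at most 23.8 on the 6 other arrays of diets #2 and #3. It thus passed the filter on low means through the diet #2 normal arrays. It also met the ratio of the rule that chose the members, so its call is a description. The kallikreins Klk1 and Klk1b5 differed by 3.30 and 2.95, and Pnliprp2, a lipase-related protein, by 2.38 (limma adjusted p = 0.00193, 0.00318 and 0.0260). Both kallikrein sets end in _f_at and match a family of similar transcripts, so their calls may not be independent. Klk1 read 12128 and 17639 in diet #2 normal and 1421 and 1246 in diet #3 normal. On the tumor arrays of diets #2 and #3 it read 2559 to 4300, above diet #3 normal. The Pnliprp2 call was lost without single arrays of diet #2 or diet #3, among them either diet #3 normal array, with an adjusted p of up to 0.156. The 4 genes had a median of 3.13, and all probe sets one of -0.03. The rule had used the same arrays, and Pnliprp2 and Klk1 were among its nearest misses. The count and median of these 4 genes are therefore descriptions as well.

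Granule and accessory genes of acinar cells followed in part. Of 7 tested, 2 were higher, with a list median of 1.45: Cuzd1, a zymogen granule membrane protein, by 3.99 and Cckar, the cholecystokinin receptor of mouse acinar cells, by 3.39 (limma adjusted p = 2.11e-05 and 0.000271). The diet #3 normal values of Cuzd1, 22.5 and 15.4, were also below the floor, and its difference ranged from 2.82 to 4.63. Cckar read 561 and 852 in diet #2 normal intestine and 11.5 to 62.1 on the 6 other arrays, where Cuzd1 read at most 65.3. Both read 50 on all diet #1 arrays. Like Amy1, Cuzd1 and Cckar passed the filter on low means through the diet #2 normal arrays and met the ratio of the rule. Their calls are therefore descriptions. Differences were positive for 6 of the 7 genes tested. Zg16 differed by only 0.10 and Spink1 by -0.15 (limma adjusted p = 0.697 and 0.886). Spink1 read 67.1 and 93.5 in diet #2 normal intestine and 50.5 to 299 on the 6 other arrays. Of 6 acinar and pancreatic transcription factors tested 0 were called (2 higher at an unadjusted p under 0.05). A further 3 fell below the filter on low means, Pdx1 among them, and Ptf1a and Bhlha15 had no probe set of their own. For 3 of the 9 probe sets of this list, those of Gata4, Nr0b2 and Pdx1, both diet #2 normal values lay above all 6 others. So they did for 6.04% of all probe sets. Rbpjl, which also fell below the filter, read 69.1 and 94.0 in diet #2 normal intestine and 71.5 to 125 on the 6 others. Of 41 genes of protein folding and secretion in the endoplasmic reticulum, 2 were higher, P4hb by 1.94 and Sec11c by 1.60, and Pdia3 was lower by a difference of -0.94 (limma adjusted p = 0.0315, 0.0181 and 0.0300), with a list median of -0.03. P4hb was also high in diet #2 tumor. It read 1723 and 2612 in diet #2 normal intestine, 2136 and 1628 in diet #2 tumor and 373 to 1152 on the diet #3 arrays. These 3 calls were lost without single arrays of diet #2 or diet #3 normal intestine, with adjusted p up to 0.182, 0.142 and 0.194.

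Islet genes other than Ins2 were called in no case. Of 30 listed, 1 was a member, 9 had no probe set of their own, Ins1 among them, 12 fell below the filter on low means and 0 of the 8 tested were called (1 lower at an unadjusted p under 0.05). Gcg, which encodes glucagon, read 60.6 and 95.1 in diet #2 normal intestine and 122 to 158 on the 6 other arrays, and was thus lowest there. Iapp, amylin of beta cells, read 78.0 and 159 against 7.07 to 23.2. Ppy, pancreatic polypeptide, read 396.5 and 392.2 against 251 to 467 (log2 difference 0.46, limma adjusted p = 0.269). Kcnj11, a potassium channel subunit of beta cells named here after its values were seen, read 337 and 218 against 50.5 to 60.1. For 3 of the 20 islet probe sets outside the members both diet #2 normal values lay above all 6 others, as they did for 6.04% of all probe sets.

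Duct genes were called for 2 of 7: Car2, a carbonic anhydrase, by 2.33 and Slc4a4, a bicarbonate cotransporter, by 2.00 (limma adjusted p = 0.0312 and 0.0263), both also made in other epithelia. Both calls were lost without the Dnmt+/- array of diet #2 normal intestine, among others, with adjusted p up to 0.174 and 0.151. The chloride channel gene Cftr differed by -0.04. The 7 duct probe sets summed to 27133 and 23024 in diet #2 normal and to 17177 to 42774 on the 6 others. Krt19 alone read 12491 and 14571 against 13242 to 29646, so the overlap of the sums says little about the other duct genes. For 3 of the 7, Car2, Slc4a4 and Muc1, both diet #2 normal values lay above all 6 others, as for 6.04% of all probe sets. Muc1 read 1000 and 1281 against 81.3 to 516 (log2 difference 2.97 ± 1.00, SE, limma adjusted p = 0.136).

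Among genes of the proximal intestine, 2 of 11 were higher. Slc11a2, the iron transporter of duodenal enterocytes, read 9945 and 22943 in diet #2 normal intestine and 314 and 1042 in diet #3 normal (log2 difference 4.53 ± 0.76, SE, limma adjusted p = 0.0263). Ada, adenosine deaminase, differed by 1.29 (limma adjusted p = 0.0320). Both calls were lost without any 1 array of diet #2 or of diet #3 normal intestine, with adjusted p up to 0.171 and 0.176. The median of the list was -0.09, with 3 genes higher and 4 lower at an unadjusted p under 0.05 by limma. Its 12 probe sets summed to 144279 and 176565 in diet #2 normal against 85298 to 166138 on the 6 others. For 5 of the 12 both diet #2 normal values lay above all 6 others, as for 6.04% of all probe sets. These were Slc11a2, Ada, Gata4, Pdx1 and Sct. Of the stomach and Brunner gland list, which holds Tff2, 0 of 3 other genes tested were called by limma (0 at an unadjusted p under 0.05), and its 7 probe sets summed to 1413 on both arrays against 1190 to 1986 on the 6 others. Of the 13 genes of that list 5 had no probe set of their own, Muc6 among them, and 4 fell below the filter on low means. The 0 calls among the 3 tested therefore say little about Brunner glands. What the genes of the proximal intestine and of the stomach and Brunner gland lists contribute to the levels of Akp3 and Tff2 was not tested.

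No gene was called higher in the ileum (4 tested), hepatocyte (5), enterocyte (6), Paneth cell (4), B cell (6) and smooth muscle (8) lists by limma. At an unadjusted p under 0.05, 1 hepatocyte and 1 smooth muscle gene were higher. All 6 enterocyte genes had negative differences, with a median of -0.79. Of 7 adipocyte genes, Adipoq and Car3 were lower by differences of -2.17 and -1.75 (limma adjusted p = 0.0358 and 0.0429). Of the lectin family, Reg1 read 32842 and 36267 in diet #2 normal against 846 to 13113 on the 6 others, Reg2 read 297 and 328 against 11.9 to 72.5, and Reg3a was lower by a difference of -3.86 (limma adjusted p = 0.0144). Without single arrays of diet #3 normal intestine these 3 calls were lost, with adjusted p up to 0.197, 0.222 and 0.115.

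**Figure D4:**
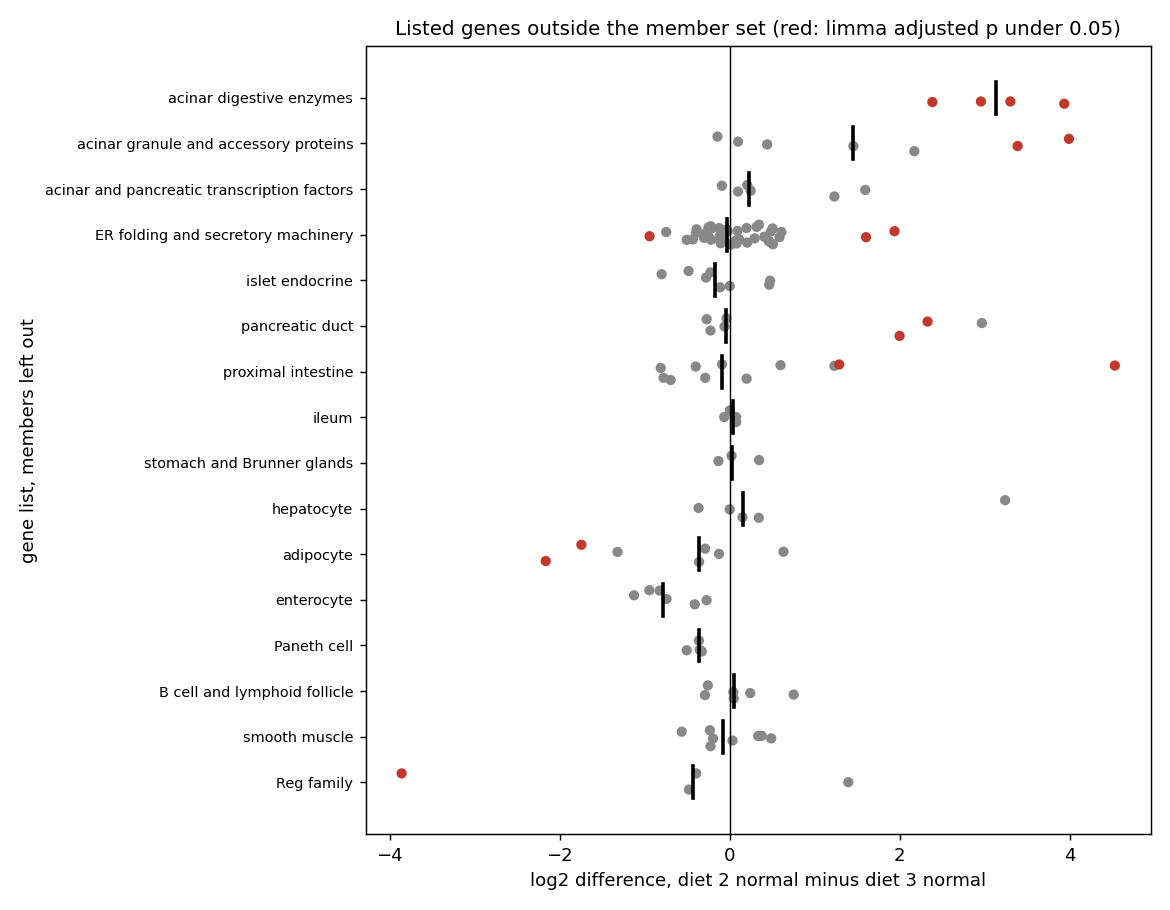
Fitted log2 difference between diet #2 and diet #3 normal intestine for genes of each list, members left out, 1 point per gene, with a bar at the list median; red marks a limma adjusted p under 0.05. All 4 acinar enzymes lie between 2.38 and 3.93, and the other list medians except that of the granule proteins lie between -0.79 and 0.22.

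Of the probe sets just outside the rule, the nearest by ratio were Slc11a2 at 3.98, Pnliprp2 at 3.73, the kallikrein Klk1b1 at 3.29, a set with no symbol at 3.23 and Klk1 at 2.82, beside Gatm at 4.07 just inside. By level they were Cuzd1 at 844, Pofut2, a protein fucosyltransferase, at 792 and Amy1 at 710, beside Gatm at 1151 just inside. In all, 13 probe sets met the ratio and not the level. Besides Cuzd1, Pofut2 and Amy1 these were Cckar, Tmprss15, Vtn, Pdx1, Reg2, Gnmt, Clpx, Rbm22 and 2 sets with several symbols or none. Tmprss15, enteropeptidase, read 641 and 555 in diet #2 normal against at most 99.8, and Pdx1, a transcription factor of pancreas and duodenum, read 568 and 448 against at most 56.6, both singled out after their values were seen. Pdx1 also stood on the transcription factor and proximal intestine lists, where it fell below the filter.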

How the data were processed

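Intestinal RNA was measured on Affymetrix MG_U74Av2 arrays with 1 colour, per the labels. Each probe set has 1 deposited intensity per array, on a linear scale. For the authors' scaling and probe summary, the method was not given in the sources used here. Files of diet #1 have a floor of 50 and no common mean, and this format coincides with diet. Gene symbols came from the platform annotation and were updated through RefSeq.

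Members were picked on deposited intensities. For tests, 66 controls were removed, the 12422 other probe sets quantile-normalized, values under the 20th percentile (44.8) raised to it, log2 taken and the lowest 40% by mean left out. limma 3.58.1 in R 4.3.3 was fitted with tissue by diet group and genotype, leaving 5 residual degrees of freedom, with Benjamini-Hochberg adjustment over 7453 probe sets and a threshold of 0.05. The scripts were tested on simulated data.

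The members and lists were chosen with earlier results of these data known. The rule for named genes took every member, the 5 nearest misses by ratio, the 3 by level, up to 3 called genes per list and the defining islet and duct genes. Pnliprp2, Tmprss15, Pdx1, Gata4, Nr0b2, Rbpjl, Spink1, Zg16, Sct, Krt19, Muc1 and the liver genes of the closing section were named beyond the list rule. The highest correlation between arrays was 0.980. The number of arrays limits the precision.

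Alternatives were other scalings, floors and filters, 1 probe set per gene, trended robust variances, a block, other sample sets, other rule thresholds and each array left out.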

Additional observations from a re-analysis of the deposited data

How the results depend on the processing

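No result changed sign. The members called higher in diet #1 tumor numbered 4, but 1 with median scaling, with values as deposited and with a floor at the 40th percentile, and 0 on the diet #1 arrays alone; leaving out single arrays gave 2 to 4, with 2 without the Dnmt+/- normal or tumor array of diet #1. Members called lower there numbered 0 to 1 when arrays were left out. In diet #3 the 4 called higher became 0 on the diet #3 arrays alone and 1 to 4 without single arrays, with 1 or 2 when any diet #3 array was missing. The difference between these tissue effects gave 1 member higher with trended robust variances and with no genotype term, and 0 to 1 higher and 0 to 2 lower without single arrays. Of the listed genes, the 12 higher became 19 with the floor at the 40th percentile and 5 to 14 without single arrays, and the 4 lower became 7 with median scaling, 8 with trended robust variances, 8 on the arrays of the diets compared and 0 to 4 without single arrays; each diet #2 or diet #3 normal array left out gave 5 or 6 higher. Amy1, Klk1, Klk1b5, Cuzd1 and Cckar passed under every alternative run for them, but Amy1, Cuzd1 and Cckar passed the filter through the diet #2 normal arrays. The rule found 36 probe sets at a ratio of at least 2 and 22 to 30 with single arrays left out. Quantile-normalized values, median-scaled values and a level doubled from 1000 each kept 19 of the 22 and dropped Ins2, Gatm and the set with no symbol, and a ratio of at least 8 kept 20 and dropped Gatm and Pla2g1b. Genotype calls stayed at 0 among the members; over all probe sets they were 1 higher with median scaling and with the floor at the 40th percentile, 1 higher and 1 lower on values as deposited, and 1 lower with trended robust variances.

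With the sample code as a replicate block, 2 members were higher in tumor in diet #1 and 2 in diet #3, and the lists gave 12 higher and 4 lower. The codes share only a number: the correlations of deviations within a code were 0.05, 0.07 and 0.13, and the number coincides with genotype. The number of arrays and values at the 2 floors limit what can be seen of dim members.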

Other observations

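Some liver transcripts read higher on the Dnmt+/+ array of diet #2 normal intestine than on the Dnmt+/- array, in genes named after their values were seen. Alb, serum albumin, read 2212 on the Dnmt+/+ array and 159 on the Dnmt+/- array, with 35.9 to 469 on the 6 other arrays of diets #2 and #3. Fga and Fgb, chains of fibrinogen, read 323 and 72.1 on the Dnmt+/+ array and 61.6 and 6.46 on the Dnmt+/- array, and Ahsg, a plasma glycoprotein made in liver, read 271 and 32.8. Of the 12 probe sets of the hepatocyte list, 8 were highest on the Dnmt+/+ array among the 8 arrays of diets #2 and #3, as were 7.26% of all probe sets. The other 4 were not: Hp read 504 there against up to 881 elsewhere, Tat 43.3 against up to 233, Apoh 19.8 against up to 23.2 and F2 10.2 against up to 18.1. Between diet #2 and diet #3 normal intestine 0 of the 5 hepatocyte genes tested were called by limma, Alb with a log2 difference of 3.24 ± 1.04 (SE, adjusted p = 0.121). The acinar members were high on both arrays.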
